A study of Mus musculus with 6 samples.

Results

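C/D box small nucleolar RNAs (snoRNAs) were examined in RNA from primary mouse keratinocytes with and without iASPP, the protein encoded by *Ppp1r13l*. Members were the rows of the count table whose gene name starts with Snord and whose counts summed to at least 10 over the 6 libraries. This rule kept 43 of 98 Snord rows, out of 55367 gene names. Keratinocytes came from day 2 pups of mixed C57BL/6 and 129/Sv background, and every culture, controls included, carried *Ppp1r13l* flox/flox and Cre+ERT. The Cre-ERT fusion was expressed from the ROSA26 locus, so recombination was not limited to keratinocytes. The labels place 1 culture with tamoxifen (iASPP KO) and 1 without it (iASPP WT) in each of 3 batches, which gave 3 same-batch pairs and 3 libraries per condition. The labels state 1 mM tamoxifen and the methods 1 μM. The medium was replaced after 24 h and RNA was taken after a further 4 days. Control cultures received no tamoxifen, so effects of the drug and of the deletion cannot be told apart. Labels do not say what a batch was, whether its cultures came from the same cells or whether batches came from different litters, so p-values measure the spread between these cultures.

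C/D box snoRNAs are short nuclear RNAs named for a pair of conserved motifs, box C near the 5′ end and box D near the 3′ end. Together with fibrillarin and its partner proteins, most of them base-pair with ribosomal RNA and guide methylation of the ribose at chosen positions. A few are instead needed for cleavage or folding of the ribosomal RNA precursor, and others act on spliceosomal RNA. In mammals most are cut out of introns of protein-coding or noncoding host genes, and the body of the host mRNA is spliced and counted separately.

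Sequences are given for 7 members, chosen because the results turn on them: the pre-rRNA processing RNA Snord118, the most abundant member Snord17, 4 abundant members that rose in iASPP KO, and Snord43, which shares an intronic host with Snord83b and was not higher. They are GENCODE vM21 transcripts on GRCm38, 5′ to 3′, and the position and length of all 43 members matched the count table. Capitals mark TGATGA (box C) where those letters lie within the first 25 bases and the last CTGA (box D) within the final 25 bases, on the transcript strand.
Snord118 (U8, chr11:69073427-69073561, plus strand): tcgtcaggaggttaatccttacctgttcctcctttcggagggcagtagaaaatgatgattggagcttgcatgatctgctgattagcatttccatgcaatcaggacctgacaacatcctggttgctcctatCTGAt
Snord17 (chr2:144265979-144266216, minus strand): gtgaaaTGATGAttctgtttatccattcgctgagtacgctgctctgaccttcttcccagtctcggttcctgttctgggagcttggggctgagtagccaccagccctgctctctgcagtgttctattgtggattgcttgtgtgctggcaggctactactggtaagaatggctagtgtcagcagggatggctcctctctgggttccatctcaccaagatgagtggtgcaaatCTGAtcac
Snord15a (chr7:99482785-99482932, minus strand): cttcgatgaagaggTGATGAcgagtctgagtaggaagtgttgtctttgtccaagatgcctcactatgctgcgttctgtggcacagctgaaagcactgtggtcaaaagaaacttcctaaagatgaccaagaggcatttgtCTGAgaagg
Snord83b (chr15:80078498-80078591, minus strand): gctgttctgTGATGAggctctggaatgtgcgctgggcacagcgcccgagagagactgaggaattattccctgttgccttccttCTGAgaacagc
Snord43 (chr15:80082847-80082954, minus strand): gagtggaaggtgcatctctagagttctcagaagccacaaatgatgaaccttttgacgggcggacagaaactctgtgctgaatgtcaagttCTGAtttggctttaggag
Snord104 (chr11:106500993-106501062, plus strand): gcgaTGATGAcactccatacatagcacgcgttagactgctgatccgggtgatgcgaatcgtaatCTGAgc
Snord49b (chr11:62603079-62603150, plus strand): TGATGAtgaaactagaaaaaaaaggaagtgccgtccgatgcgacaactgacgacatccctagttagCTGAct

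Of the 43 members, 26 held TGATGA in the first 25 bases, 42 held CTGA in the last 25 bases and 25 held both (58.1%). Among 42 transcripts named Snora, the H/ACA box class of snoRNAs, in the same length range of 64 to 238 bases, the shares were 0% for box C, 14.3% for box D and 0% for both. Among 6301 other transcripts of that length range not typed as snoRNA they were 0.8%, 11.0% and 0.1%. In Snord118 and Snord43 the letters tgatga occur further in, beyond the first 25 bases searched. The members ran from 64 bases (Snord37) to 238 bases (Snord17) with a median of 79, and 34 of them were under 100 bases.

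Library totals ran from 20202517 to 25157117 counts, so 3 counts corresponded to 0.123 to 0.141 CPM (counts scaled to a library of 1000000 after edgeR's TMM normalization). That floor covers counting error only, since PCR copies were not told apart. The targeted gene *Ppp1r13l* had 320, 395 and 139 counts in iASPP KO of batches 1, 2 and 3 and 697, 1100 and 472 in iASPP WT, a log2 fold change of −1.45 (SE 0.18, adjusted p = 0.0030 in the edgeR fit after Benjamini-Hochberg correction). Every pair was lower in iASPP KO, and only exon 8 is removed, so transcripts of the other exons can still be counted. Of 6 keratinocyte markers, including *Krt5* and *Krt14*, none was at 0 and the summed level was 22866 to 26740 CPM in iASPP KO and 23629 to 27412 in iASPP WT.

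One library stood apart from the rest for these RNAs. Of the 40 members that passed edgeR's filter on low counts, 34 were highest in the iASPP-KO culture of batch 1 and 29 were lowest in the iASPP-WT culture of batch 2. The median deviation of a member from its own mean over the 6 libraries, on the log2 CPM scale, was 1.45, −0.37 and 0.33 in iASPP KO of batches 1, 2 and 3. In iASPP WT it was −0.04, −0.94 and −0.37. Between cultures of one condition, the 40 members differed by a median of 1.77 log2 units (iASPP KO, batch 1 minus batch 2), larger than the difference between the conditions given below. In iASPP WT batch 1 exceeded batch 2 by a median of 0.90. The iASPP-KO culture of batch 2 lay below the iASPP-WT culture of batch 1 in this measure, so across batches the conditions overlapped, and comparisons were made within batch.

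**Figure D1:**
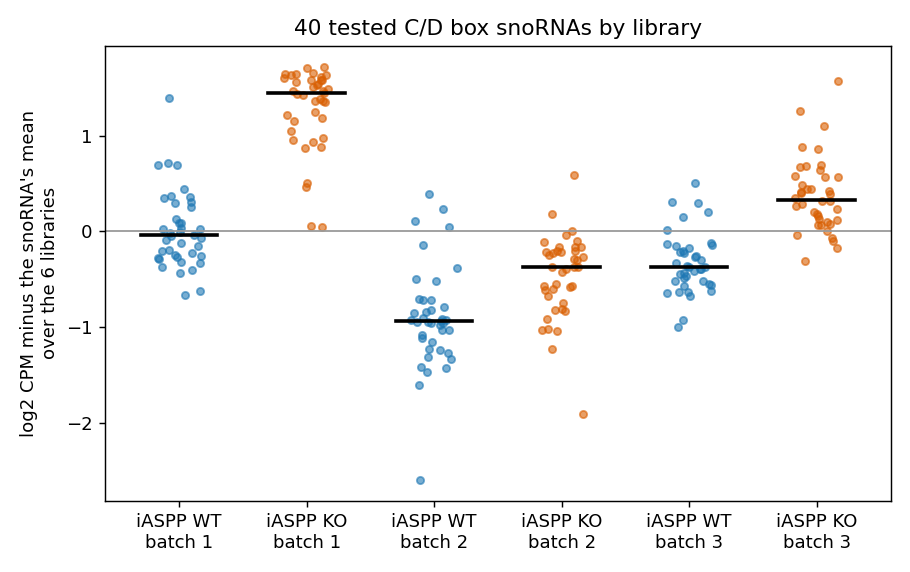
Each point is 1 of the 40 tested C/D box snoRNAs, the vertical axis is its log2 CPM minus its mean over the 6 libraries, and black lines are medians. Within each batch the iASPP-KO median (1.45, −0.37 and 0.33 in batches 1, 2 and 3) lies above the iASPP-WT median (−0.04, −0.94 and −0.37), and iASPP KO of batch 1 lies highest.

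With batch and condition in the model, 14 of the 40 tested C/D box snoRNAs rose in iASPP KO (adjusted p under 0.05) against 2.17% of all 14916 tested genes, and 0 rose in iASPP WT, against 1.95%. At an unadjusted p under 0.05 edgeR had 28 on the iASPP-KO side (8.66% of all genes) and 0 on the other, and DESeq2 called 18 higher (1.51%) and 0 lower (1.28%) after adjustment. The log2 fold change was above 0 for 37 of the 40, where 50.6% of all tested genes were, with a median of 0.94 and a range of −0.46 to 1.81. The median over all tested genes was 0.0057. All adjusted p-values below are of the edgeR quasi-likelihood fit, corrected over all tested genes by Benjamini-Hochberg. The 14 were Snord118, Snord104, Snord15a, Snord35a, Snord82, Snord13, Snord23, Snord49b, Snord8, Snord55, Snord83b, Snord34, Snord49a and Snord61. In these bulk libraries more RNA per cell and a larger share of cells holding it cannot be told apart.

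The size of the difference varied between batches. Median log2 fold changes over the 40 members were 1.51, 0.60 and 0.68 within batches 1, 2 and 3, with 37, 31 and 36 members above 0. Of the 40, 28 had a positive difference in each of the 3 batches, where 19.5% of all tested genes did. Only 5 had every iASPP-KO library above every iASPP-WT library (Snord13, Snord15a, Snord104, Snord8 and Snord123), where 5.26% of all tested genes did. Without batch 1, the batch with the highest library, 8 members passed (1.09% of all genes) and the median was 0.65, against 14 passing without batch 2 (1.14%) and 24 without batch 3 (5.2%). The 8 (Snord118, Snord104, Snord15a, Snord35a, Snord13, Snord49b, Snord55 and Snord83b) were among the 14, and each of them passed with any 1 batch left out. Without the batch term none of the 40 passed in edgeR, where 15 had an unadjusted p under 0.05 (2.41% of all genes), and no gene of the table passed either.

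**Figure D2:**
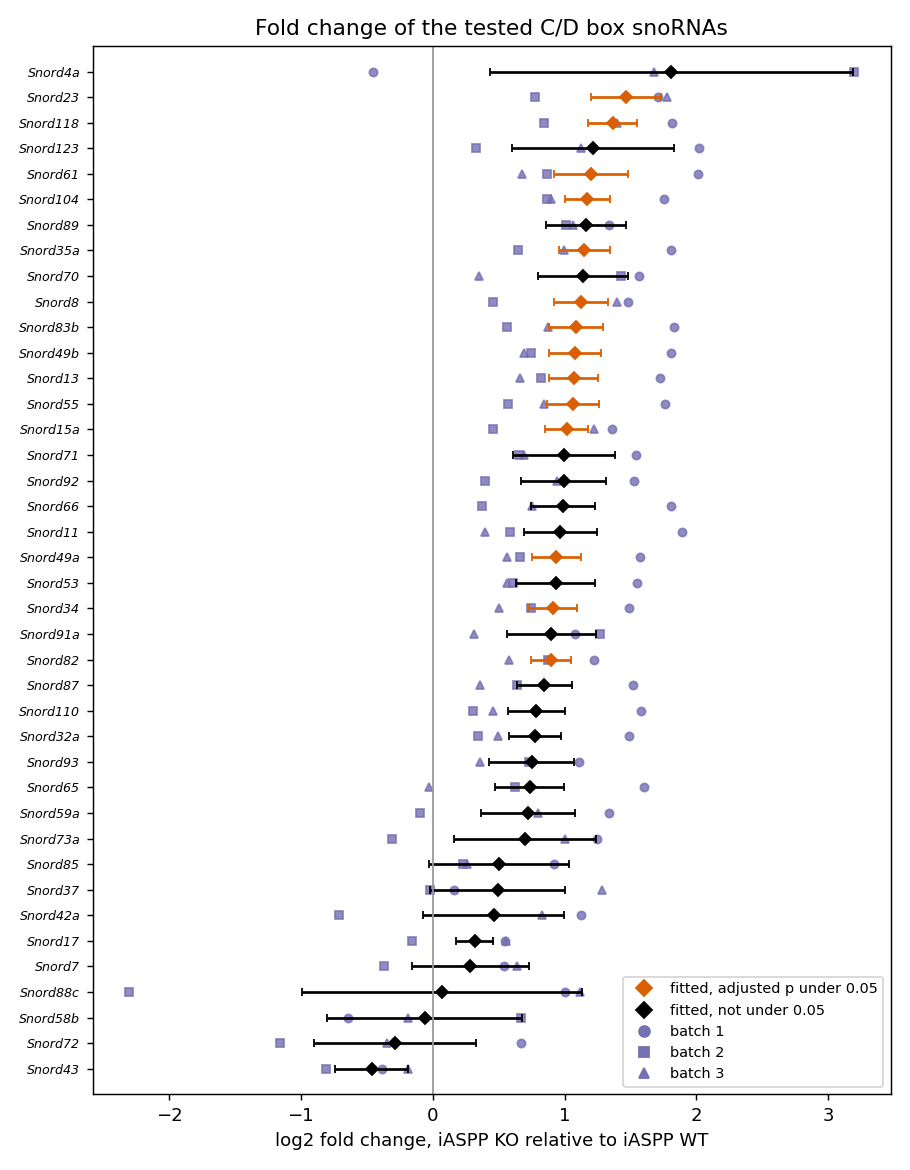
Diamonds are log2 fold changes (iASPP KO over iASPP WT) from the fit with batch, with bars of 1 SE, for the 40 tested members in order of size. Purple symbols are the differences within each batch, and orange diamonds mark the 14 members with an adjusted p under 0.05, all above 0 under TMM scaling over all genes; scaling to other short rows left none of them called.

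The pre-rRNA processing members were both among the 14. U3, another RNA of pre-rRNA processing, is named Rnu3 and so lay outside the member rule. Rnu3a had a log2 fold change of 0.86 (adjusted p = 0.0074, edgeR). Rnu3b1, Rnu3b2, Rnu3b3 and Rnu3b4 had −0.10, −0.36, −0.25 and −0.47 and did not pass. Snord118, or U8, which is needed for maturation of the large-subunit ribosomal RNAs, had 73.5, 23.9 and 77.3 CPM in iASPP KO of batches 1, 2 and 3 and 20.8, 13.3 and 29.3 CPM in iASPP WT. Each iASPP-KO culture exceeded its own pair, and the lowest iASPP-KO value lay below the highest iASPP-WT value. The log2 fold change was 1.36 (SE 0.19, adjusted p = 0.0043, edgeR), the smallest p of any member, and between 1.13 and 1.61 with 1 batch left out. Of 94 windows of 42 bases, the read length, in Snord118, 23 also occur in the gene *Gm24208*, and reads that aligned to more than 1 place were not counted. Snord13, or U13, which acts on the small-subunit ribosomal RNA, had 261, 84.1 and 115 CPM in iASPP KO and 78.9, 47.7 and 72.4 CPM in iASPP WT. The groups did not overlap, and the log2 fold change was 1.07 (SE 0.19, adjusted p = 0.0136, edgeR).

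Abundant guides of ribosomal RNA methylation were among the members that rose. Snord15a had 900, 443 and 681 CPM in iASPP KO and 351, 322 and 292 CPM in iASPP WT. All iASPP-KO cultures were above all iASPP-WT cultures, with a log2 fold change of 1.02 (SE 0.17, adjusted p = 0.0095, edgeR). Snord104, which guides methylation of 28S ribosomal RNA, had 646, 197 and 321 CPM in iASPP KO and 191, 108 and 172 CPM in iASPP WT. Its groups did not overlap either, though by little, and the log2 fold change was 1.17 (SE 0.17, adjusted p = 0.0056, edgeR).

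Snord83b had 1025, 295 and 566 CPM in iASPP KO and 288, 200 and 309 CPM in iASPP WT, and Snord49b 779, 219 and 299 against 223, 131 and 185 CPM. In both, iASPP KO of batch 1 was highest by a wide margin and the iASPP-KO culture of batch 2 fell among the iASPP-WT cultures, although it exceeded its own pair. Their log2 fold changes were 1.09 and 1.08 (SE 0.20 each, adjusted p = 0.0181 and 0.0163, edgeR). With edgeR's robust dispersion Snord83b had an adjusted p of 0.0641. Snord35a, a guide of 28S methylation, had 456, 125 and 204 CPM in iASPP KO and 130, 79.9 and 103 CPM in iASPP WT, with the same overlap at batch 2 and a log2 fold change of 1.15 (SE 0.19, adjusted p = 0.0104, edgeR).

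**Figure D3:**
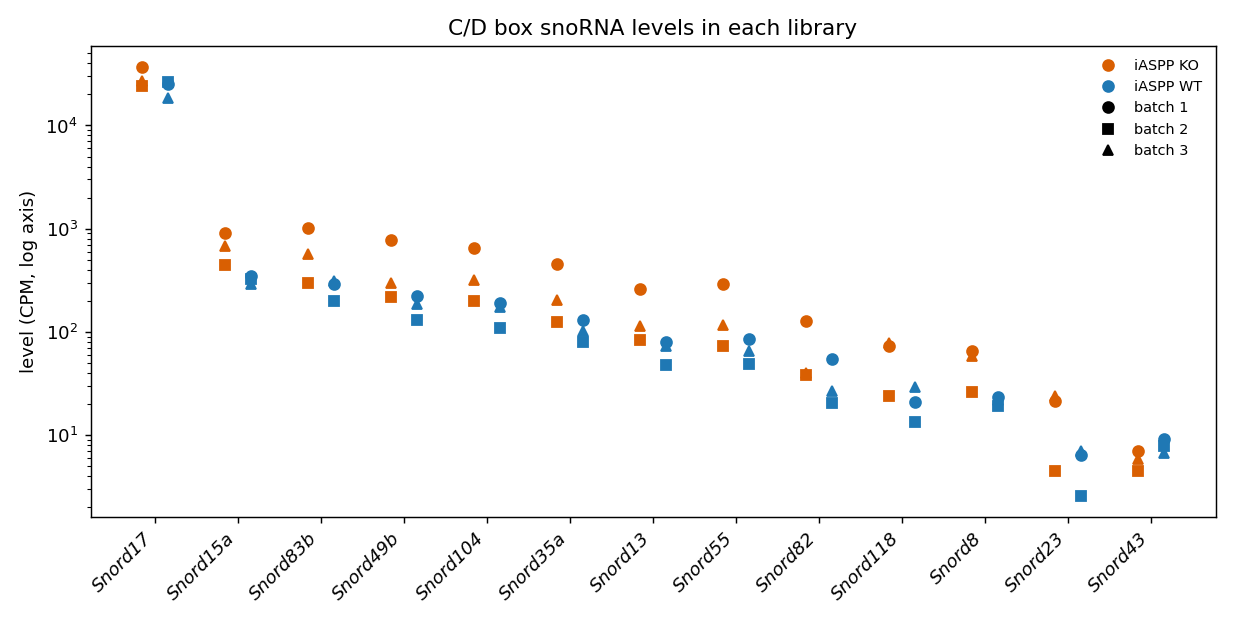
CPM on a log axis in each library for 13 members, with iASPP KO in orange, iASPP WT in blue and a symbol for each batch. Snord17 lies between 18352 and 36604 CPM, far above the others; for the 11 members from Snord15a to Snord23 each iASPP-KO point lies above the iASPP-WT point of its batch, and for Snord43 each lies below.

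Snord55, Snord34 and Snord82 had log2 fold changes of 1.06, 0.91 and 0.90 (adjusted p = 0.0174, 0.0215 and 0.0114, edgeR). Snord55 and Snord34 are guides of 28S methylation, and Snord82 lies in an intron of the nucleolin gene *Ncl*. Snord49a (0.94, adjusted p = 0.0217, edgeR) and Snord61 (1.20, adjusted p = 0.0430, edgeR) also passed and also guide methylation of ribosomal RNA. When batch 1 was left out, Snord82, Snord34, Snord49a and Snord61 no longer passed (adjusted p = 0.0998, 0.120, 0.0897 and 0.361, edgeR), and Snord34 and Snord61 did not pass without batch 2 either (adjusted p = 0.0509 and 0.0679, edgeR). Just outside the threshold were Snord66, Snord87 and Snord32a (adjusted p = 0.0518, 0.0525 and 0.0560, edgeR, log2 fold changes of 0.99, 0.85 and 0.78).

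Snord23, in an intron of the nucleolar protein gene *Nop53*, had the largest log2 fold change of the 14, 1.47 (SE 0.26, adjusted p = 0.0149, edgeR). Its levels were 21.3, 4.49 and 24.1 CPM in iASPP KO and 6.47, 2.58 and 6.99 CPM in iASPP WT. Each iASPP-KO culture exceeded its own pair, by 1.71, 0.78 and 1.77 log2 units in batches 1, 2 and 3, and the member did not pass without batch 1 (adjusted p = 0.0748, edgeR). Snord8 and Snord7 guide methylation of the spliceosomal U6 RNA rather than ribosomal RNA. Snord8 had 65.3, 26.2 and 58.2 CPM in iASPP KO and 23.4, 19.1 and 22 CPM in iASPP WT, with no overlap and a log2 fold change of 1.12 (SE 0.20, adjusted p = 0.0163, edgeR). Without batch 1 its adjusted p was 0.0617 in edgeR. Snord7 had 5.35, 1.66 and 3.44 CPM against 3.65, 2.17 and 2.18 CPM, and its log2 fold change of 0.29 (SE 0.44) did not pass (adjusted p = 0.821, edgeR).

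Snord17 differed from the other members in level and did not pass the test. Its level per length, 110192 CPM per kilobase, exceeded that of the next members Snord83b (4756), Snord49b (4250), Snord104 (3896), Snord15a (3365) and Snord32a (2349). This guide of 28S methylation had 36604, 23880 and 26948 CPM in iASPP KO and 24997, 26571 and 18352 CPM in iASPP WT. Its groups overlapped, and in batch 2 iASPP KO was the lower of the pair. The log2 fold change was 0.32 (SE 0.14, adjusted p = 0.293, edgeR), a ratio of 1.25. Without a filter on low counts the adjusted p was 0.0276 in edgeR.

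The weight of Snord17 sets the share of all counts that fell on C/D box snoRNAs. That share was 3.91%, 2.44% and 3.20% in iASPP KO of batches 1, 2 and 3 and 2.7%, 2.7% and 2.23% in iASPP WT, of which Snord17 held 2.04% to 3.35% of all counts. The within-batch ratios for all members were 1.45, 0.904 and 1.43, and the mean log2 ratio of 0.30 was smaller than its SD of 0.39 over the 3 batches. Without Snord17 the share was 0.559%, 0.182% and 0.335% in iASPP KO and 0.197%, 0.124% and 0.194% in iASPP WT. Those ratios were 2.84, 1.47 and 1.73, all above 1.

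Members with a log2 fold change near or below 0 were mostly rare. Snord43, a guide of 18S methylation, had 6.95, 4.44 and 5.91 CPM in iASPP KO and 9.09, 7.83 and 6.73 CPM in iASPP WT. It was lower in iASPP KO in every pair, a direction no other tested member had in all 3 batches, but the log2 fold change of −0.46 (SE 0.28) did not pass (adjusted p = 0.465, edgeR). Snord72 (−0.29, SE 0.61), Snord58b (−0.06, SE 0.74) and Snord88c (0.07, SE 1.06) had at most 2.67 CPM in any library and changed sign between batches. Of the read-length windows of Snord58b and Snord88c, 14 of 25 and 8 of 49 also occur in other genes. The fitted value above all others, 1.81 for Snord4a, had an SE of 1.38 and came from 87 counts over the 6 libraries. Snord123 had 4.45, 1.93 and 1.95 CPM in iASPP KO and 1.03, 1.52 and 0.846 CPM in iASPP WT, with no overlap, a log2 fold change of 1.22 (SE 0.61) and an adjusted p of 0.364 in edgeR.

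More of the abundant members passed than of the rare ones. With the 40 ordered by mean CPM in 3 classes, 0 of 14, 4 of 13 and 10 of 13 members passed from the lowest class to the highest, with median log2 fold changes of 0.60, 0.99 and 1.02 and median SEs of 0.53, 0.27 and 0.19. Snord90, Snord98 and Snord42b were not tested for lack of counts. Snord90 had 0, 2 and 11 counts in iASPP KO and 0 in each iASPP-WT library, Snord98 had 0, 0 and 1 against 13, 0 and 14, and Snord42b had 3, 0 and 4 against 11, 2 and 0. These values do not share a direction and lie too close to the floor of 3 counts to be compared.

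Length gave a low correlation with the fold change. Over the 40 tested members the Spearman correlation of log2 fold change with row length was 0.21 and the Pearson correlation −0.06, both given as descriptions over RNAs that share the same libraries. Within batches 1, 2 and 3 the Spearman values were 0.07, 0.01 and 0.15. Without Snord17, the one member over 200 bases, they were 0.28 (Spearman) and 0.14 (Pearson) over 39 members. Of the 32 tested members under 100 bases, 9 passed (median log2 fold change 0.91), and of the 7 of 100 to 148 bases, 5 passed (median 1.12). Level and length went together too (Spearman 0.29 for log2 mean CPM with length). GC content had a Spearman correlation of 0.17 with the fold change and log2 mean CPM one of 0.30.

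Other short rows of the table lay on the same side. They were set apart by name alone, so this set can hold C/D box snoRNAs under names other than Snord. Apart from Snora and Scarna its classes were not sorted. Of 201 tested rows under 200 bases other than Snord, 37 rose in iASPP KO (18.4%) and 0 in iASPP WT, with a median log2 fold change of 0.68 and within-batch medians of 0.97, 0.23 and 0.73. Of 17 tested Snora rows 3 rose (median 0.78), and of 7 tested rows of Scarna, the Cajal body class, 1 rose (median 0.18). Of 64 rows from 200 to under 300 bases 5 rose (median 0.16), and the median of the 14676 rows of 200 bases or more was 0.001. Counts on the other rows under 200 bases were 2.21, 1.20 and 1.76 times as large a share of the library in iASPP KO as in iASPP WT in batches 1, 2 and 3, beside the 2.84, 1.47 and 1.73 of the C/D box snoRNAs other than Snord17. When libraries were scaled by TMM on those other short rows alone, the median of all tested genes moved to −0.65. The member median was then 0.28. It lay 0.92 above the median of all genes, against 0.93 in the main fit, a gap that rescaling leaves nearly fixed because it shifts all genes alike. Of the 40 members 31 were above 0, none rose (0.248% of all genes, with 2 members at an unadjusted p under 0.05 in edgeR) and 1, Snord43, fell (18.8%). Under that scaling Snord17, Snord7, Snord37 and Snord88c turned below 0. The other short rows, which can include the same class, thus moved with the C/D box snoRNAs in these libraries. Whether short RNA was recovered alike in each library was not tested.

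**Figure D4:**
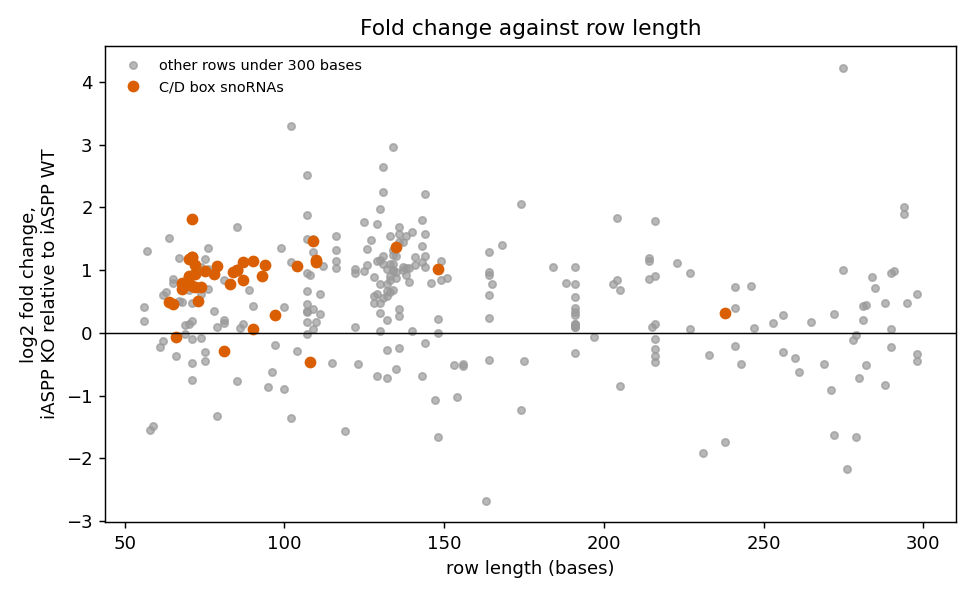
Log2 fold change (iASPP KO over iASPP WT) against row length in bases for tested rows under 300 bases. C/D box snoRNAs named Snord are in orange and rows of any other name in grey. Both sets lie mostly above 0 under 200 bases (medians 0.94 and 0.68), and no slope with length is visible among the C/D box snoRNAs; under scaling to the other short rows the member median is 0.28.

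Host genes lay near 0 where the snoRNAs in their introns lay above it. By position, 39 members lay within 30 named genes on the same strand, and all 30 hosts were tested. Reads that aligned to several places were not counted, so a host row can hold only part of its mRNA. Among ribosomal protein hosts the mean in iASPP WT was 2.54 CPM for *Rpl23a* and 3825 CPM for *Rps3*. The median host log2 fold change was −0.0071, in a range of −0.33 to 1.02. Over all 14676 rows of 200 bases or more the median was 0.001, and over other rows under 200 bases it was 0.68. Such a gap thus separates long from short rows at large, not only these hosts and members. Among the 30 hosts 1 rose in iASPP KO and 0 in iASPP WT, where 2.17% and 1.95% of all tested genes did. That host was *Snhg18*, the noncoding host of Snord123, with 20.9, 24.1 and 29.5 CPM in iASPP KO and 11.9, 11.5 and 15.8 CPM in iASPP WT and a log2 fold change of 0.93 (SE 0.17, adjusted p = 0.0181, edgeR). For the 11 members that rose and have a host, the host values lay between −0.13 and 0.15 and none passed. Of 36 tested members, 30 had a larger log2 fold change than their host, with a median difference of 0.90, and the Spearman correlation between member and host over these 36, given as a description, was 0.03. Where no named host was found (Snord118, Snord13, Snord104 and Snord89), 3 of 4 members rose, beside 14 of all 40 tested members and 2.17% of all tested genes.

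**Figure D5:**
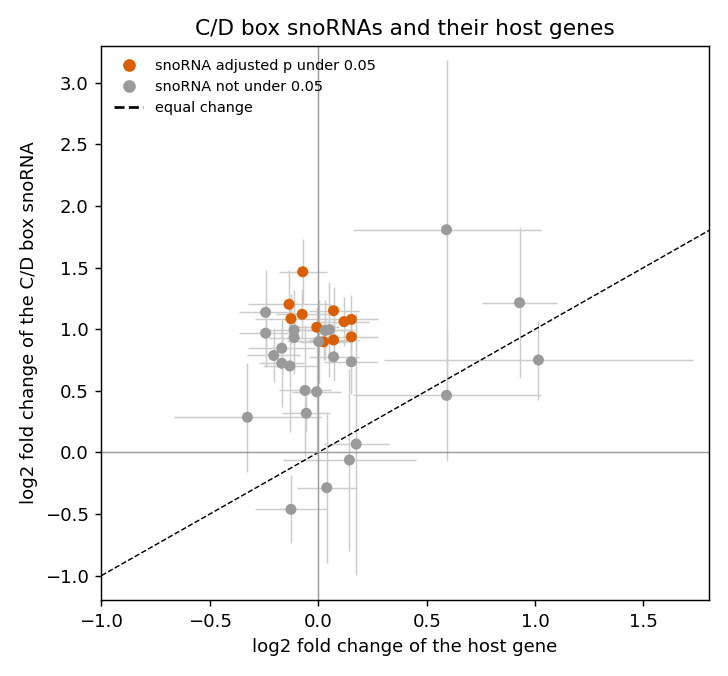
Log2 fold change of each of 36 tested C/D box snoRNAs against that of its host gene, with bars of 1 SE and a dashed line of equal change. Hosts cluster around 0 (range −0.33 to 1.02), as rows of 200 bases or more do (median 0.001). Above the line lie 30 of the 36 snoRNAs, and the 11 that rose (orange) have hosts between −0.13 and 0.15.

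Members of one host share a precursor transcript, and their fold changes were set side by side. *Rpl3*, which encodes a large-subunit ribosomal protein, holds both Snord83b (log2 fold change 1.09) and Snord43 (−0.46), and itself had 52.2, 48.4 and 43.2 CPM in iASPP KO and 67.7, 62.1 and 33.4 CPM in iASPP WT, a log2 fold change of −0.13 (SE 0.17). In each batch Snord83b was higher and Snord43 lower in iASPP KO. A test of the difference between these members was not made. With reads that aligned to several places left out, the *Rpl3* and *Rpl13a* values can cover part of the mRNA only. In *Rpl13a*, another large-subunit protein gene (log2 fold change 0.07), Snord35a, Snord34 and Snord32a had 1.15, 0.91 and 0.78. In the noncoding *2410006H16Rik* (0.15), Snord49b, Snord49a and Snord65 had 1.08, 0.94 and 0.74. Snord70 and Snord11 had 1.14 and 0.97 in *Nop58* (−0.24), which encodes a core protein of the C/D box particle, and Snord92 and Snord53 had 0.99 and 0.93 in *Wdr43* (−0.11). By host class, 5 of 12 members in ribosomal protein genes rose, 2 of 8 in genes for nucleolar or ribosome-assembly proteins, 2 of 8 in other protein-coding genes and 2 of 8 in noncoding or RIKEN-named genes. Over all 40 tested members 14 rose, and 2.17% of all tested genes did. The median SE in these classes was 0.24, 0.29, 0.32 and 0.29, in the same order. A difference between host classes was not tested.

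Many Snord rows held no counts. Of the 55 Snord rows under 10 counts, 53 were at 0. Overlap with an exon of another gene on the same strand was present in 38 of the 55, and 36 of these lay within such exons over their whole length and had 0 counts each, since a read that falls on exons of more than 1 gene name was not assigned. The rows of Snord14 (U14) and Snord22 (U22), both of which act in pre-rRNA processing, and those of the host *Gas5* are among these and give no information on those RNAs. None of the 43 members was covered over its whole length. Snord42b overlapped *Rpl23a* exons over 22 of its 69 bases and Snord66 overlapped *Eif4g1* by 1 base. The other 17 rows under 10 counts were copies of Snord116, the imprinted cluster expressed mainly in brain, with 1 count in all. A read that aligned to more than 1 copy was not counted, so these low counts do not show that the RNA was absent.

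No gene for the proteins that build and trim the C/D box particle passed the test. Of 19 listed genes 18 were found and tested, and none passed in either direction in edgeR. An unadjusted p under 0.05 was found for 2, both below 0. On the iASPP-KO side alone 8.66% of all tested genes had such a p. The log2 fold change was below 0 for 17 of 18, with a median of −0.21, where 50.6% of all tested genes were above 0. Not all kept that sign in every batch, as *Fbl* had −0.56, 0.01 and 0.51 in batches 1, 2 and 3. A joint change of the list was not tested. The core protein genes *Fbl* (fibrillarin, the methyltransferase), *Nop56*, *Nop58* and *Snu13* had −0.01, −0.21, −0.24 and −0.41. The smallest adjusted p was that of the assembly factor *Nufip1* (−0.42, SE 0.15, adjusted p = 0.171, edgeR), and the largest departure that of *Exosc10*, a nuclear exosome nuclease that trims snoRNA ends (−0.50, SE 0.18, adjusted p = 0.183, edgeR). The one value above 0 was 0.17 for *Rrp9*, a protein specific to the U3 particle.

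Marker lists of other skin cells were measured beside these results. The summed level of 6 leukocyte markers, with *Cd3e* at 0, was 20.9 to 67.7 CPM in iASPP KO and 14.4 to 57.6 in iASPP WT, and 1 of the 3 tested rose in iASPP KO. Within batches 1, 2 and 3 the sums were 59.2, 67.7 and 20.9 CPM in iASPP KO and 40.1, 57.6 and 14.4 in iASPP WT, higher in iASPP KO in each pair. The single markers did not all share this. *Csf1r* was higher in iASPP KO in each pair. *Tyrobp* had 0.134, 0.269 and 2.25 CPM in iASPP KO and 0, 0 and 1.20 CPM in iASPP WT. It was not tested, and in batches 1 and 2 it lay at or near the floor of 3 counts. *Cd68* was lower in batch 2 (38.3 against 42.5 CPM). *Ptprc* was lower in batch 1 (0.312 against 1.17 CPM) and about level in batch 3 (2.12 against 2.14 CPM). The sums of 6 fibroblast markers in batches 1, 2 and 3 were 36.7, 51.5 and 454 CPM in iASPP KO. In iASPP WT they were 33.7, 44.1 and 669 CPM. The sum was high in both cultures of batch 3, where iASPP KO was lower, and in batches 1 and 2 iASPP KO was higher. Of these markers 2 passed, both higher in iASPP WT. *Col1a2* and *Col3a1* were lower in iASPP KO in each pair. *Pdgfra* was higher in iASPP KO in batches 1 and 2 and lower in batch 3. For melanocytes, with 6 markers tested, the sums were 395 to 1036 and 341 to 1088 CPM, lowest in both cultures of batch 2, and none passed. For endothelium, 4 of 6 markers were tested, the sums were 4.16 to 21.5 and 9.75 to 11.0 CPM, and none passed. The part of these cells in the snoRNA values was not tested.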

How the data were processed

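RNA of 6 keratinocyte cultures, 3 iASPP KO and 3 iASPP WT in 3 batches, was isolated on RNeasy columns, which retain short RNAs poorly, depleted of ribosomal RNA, fragmented, size-selected and sequenced as single reads of 42 bases. The authors trimmed adapters with cutadapt, aligned with STAR to GRCm38 and deposited featureCounts 2.0.0 counts for each gene name, by strand on GENCODE vM25 exons, without normalization. Reads that aligned to several places or fell on several gene names were not counted. A second deposited table, holding the authors' DESeq2 means, fold changes and p-values, was not used.

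Samples were grouped by the labels. Counts were fitted with edgeR 4.0.16 in R 4.3.3 (filterByExpr, TMM, glmQLFit and glmQLFTest with batch and condition), and p-values were adjusted by Benjamini-Hochberg over 14916 genes with a threshold of 0.05. Library totals were 20202517 to 25157117 counts. The SE was taken as the log2 fold change, without sign, over the root of the F statistic. Within-batch differences used log2 CPM with a prior count of 2. Same-numbered cultures carry the same batch label, and after removal of condition means their log CPM correlated at 0.302 to 0.568 (different batches −0.427 to 0.179). In chi-square comparisons of cultures of one condition the statistic was 35.4 to 147 per gene, so none was taken for a copy.

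A host was the shortest named gene on the same strand holding the whole row and spanning at least 3 times its length. Box motifs and shared windows were searched in GENCODE vM21 transcripts, and no genome sequence was used. Members and lists were chosen with earlier results of these data known. Named members were up to 12 that passed by smallest p, the 5 with the largest and the 5 with the smallest fold change, the 6 highest per length, the longest and shortest 2, the pre-rRNA processing members and their hosts. Others were named after their values were seen. Alternatives were no batch term, DESeq2 1.42.0, other size factors, other filters, robust dispersion, each batch left out, other choices for shares and lengths, and, added after seeing the data, TMM on the other rows under 200 bases and correlations without Snord17. Figures were drawn with matplotlib 3.10.9.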

Additional observations from a re-analysis of the deposited data

How the results depend on the processing

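The batch numbers pair the cultures. Without the replicate block 0 members passed in place of 14 (0% of all genes), and 15 had an unadjusted p under 0.05 in edgeR (2.41%). *Ppp1r13l* then had a log2 fold change of −1.38 with an adjusted p of 0.973 by edgeR, and the member median was 1.07. With no filter beyond 1 count 23 members passed (1.95% of all genes). With 1 batch left out 8 (without batch 1, 1.09% of all genes) to 24 (without batch 3, 5.2%) passed, the cause of which was not tested. DESeq2 gave 18 (1.51% of all genes), which include all 14. Scaling to the other rows under 200 bases, added after seeing the data, gave 0 higher members (0.248% of all genes) and 1 lower (18.8%). The member median was 0.28 against −0.65 for all genes, and Snord88c (−0.65), Snord7 (−0.38), Snord17 (−0.34) and Snord37 (−0.17) turned below 0. The other scalings, filters and batches left out kept the member median between 0.65 and 1.12.

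The correlation of fold change with length (Spearman 0.21) was 0.34 over all 43 rows with DESeq2 and with no filter, 0.29 with at least 10 counts in every library, 0.32 by within-batch differences over all members, 0.28 without Snord17 and 0.10 to 0.27 with 1 batch left out. Pearson's value was −0.062. The mean log2 ratio of shares, 0.30, was 0.94 without the 3 most abundant members and 0.19 to 0.53 with 1 batch left out. Among rare members, with 1 batch left out Snord72 ran from −0.78 to 0.17 (above 0 without batch 2), Snord58b from −0.43 to 0.26 (0.0099 without batch 3) and Snord88c from −0.67 to 1.13 (−0.63 without batch 1). The 14 rarest tested members, 12 of them above 0, had a median SE of 0.53 against 0.19 in the 13 most abundant.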
